A study of Penicillium oxalicum with 114 samples.

Results

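The 79 genes described here are wheat-bran genes of the filamentous fungus Penicillium oxalicum. After 36 h on cellulose, their mean transcript levels plus 1 differed at most 2-fold between a strain without the regulator gene clrB and its control. They were selected on their measured levels as CPM, the deposited expected count of a gene as a share of the library total times 1000000. Each had at least 30 CPM in each of the 3 wheat-bran-media libraries of HP7-1, the lowest of these was at least 6 times the highest glucose value plus 1, and the ratio of group means (each plus 1) of MuPOXClrB over MuKu70 on Avicel at 36 h lay between 0.5 and 2. Of 9863 gene IDs, 5185 met the first condition, 125 met the first and second, and 79 met all 3. Of the other wheat-bran genes, 39 had a ratio under 0.5 and 7 had a ratio over 2.

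Wheat bran holds hemicelluloses such as arabinoxylan, starch, protein and lipid besides cellulose, and filamentous fungi that degrade plant matter switch on different secreted enzymes, transporters and metabolic genes on each of these. ClrB is a zinc cluster transcription factor known in filamentous fungi as an activator of cellulase genes. Avicel is a microcrystalline cellulose with little else in it. No ID of the files matched the available RefSeq annotation of this species, so the members are named by ID, without a product.

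RNA-seq was done on 114 libraries in 33 groups. HP7-1, the wild type, grew from spores for 72 h without transfer on wheat bran, wheat bran plus rice straw and wheat bran plus bagasse (1 library each) and on 2% glucose (3 libraries). The other strains carried deletions of clrB (MuPOXClrB), POX01167 (MuPOX01167), POX02968 (MuPOX02968), POX04420 (MuPOX04420) or POX07277 (MuPOX07277), or carried POX01167 overexpressed from its own promoter (MuOES1167). Their control was MuKu70, a strain with the KU70 gene deleted, a change that makes gene targeting easier. The labels do not say whether the mutants lack KU70 too. Hyphae of MuPOXClrB, MuPOX01167 and MuKu70 were transferred from glucose to Avicel (AV) for 12 or 36 h, with a 24 h AV group of MuPOXClrB as well, or to wheat bran plus Avicel (WA) for 12, 24 or 36 h (3 libraries per group). MuPOXClrB, MuPOX02968, MuPOX04420 and MuOES1167 (3 libraries each) and MuKu70 (24 libraries) were transferred for 24 h to what the labels call an inducing carbon source. MuPOXClrB and MuPOX01167 were also grown on this source from spores for 72 h (3 each). MuPOX07277 and MuKu70 were transferred for 24 h to AV plus 1 of 3 lipids: arachidonic acid oil, oleic acid or linolenic acid (3 libraries each). One of the MuKu70 WA 12 h libraries is labelled 13 h.

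Depth was 365937 to 902988 counts per glucose library and 705723 to 3115003 per wheat-bran-media library, 5368155 to 8267079 in the 48 AV and WA libraries, and 13277742 to 14731797 in 36 libraries that include the 18 lipid libraries and 12 of the 24 MuKu70 induced ones. The lowest count of a member in a bran library was 22. The deleted genes POX02968, POX04420 and POX07277 stood at 0 to 0.359 CPM in their mutants. No label pairs clrB with an ID, so its own level was not checked. POX01167 was near 0 on WA in MuPOX01167 (at most 0.84 CPM), but the AV libraries with that label held up to 1603 CPM of it at 12 h and 95.6 to 207 CPM at 36 h, so these libraries are not set against another group in any test below. They share the estimate of the spread in the AV and WA fit and are among the groups of the plots, the ranges and the correlations over group means. Nothing in the labels says that replicates are separate cultures, so p-values measure the spread between libraries, which may be technical. For the AV and WA libraries, quantification sets were inferred by clustering on the deposited FPKM per share of counts. No label describes these sets, and the main tests are not blocked by them.

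In the bran media the members ranged widely. Their mean over the 3 bran libraries ran from 34.98 to 6947 CPM with a median of 193 CPM, and the fold used by the rule had a median of 10.3 and reached 201. POX05578 was the highest, with 1020.2 CPM on bran, 14069.6 CPM on bran plus rice straw and 5749.7 CPM on bran plus bagasse, against 8.86 to 120.2 CPM on glucose. POX04214 had 2332, 6116 and 7129.7 CPM in the same order, against 14.4 to 123 CPM on glucose. POX01682 had 2040.5, 4329 and 3694 CPM, against 35.4 to 60.3 CPM on glucose. POX08990 had 1108, 5372 and 2925 CPM, against 2.73 to 5.02 CPM on glucose. The 5 highest members were thus lowest in the library on bran alone, and the fifth, POX03711, had 674, 4394 and 2351 CPM there. Next in level came POX04531, POX01780, POX09025, POX01799 and POX01219, with means of 1342 to 745 CPM. Of these 5, POX01780 and POX01799 were highest on bran alone, with 1442 and 1179 CPM. Over all members, 31 were highest with bagasse, 26 with rice straw and 22 on bran alone. The 10 leading members made up 47.8% of the summed member level on bran, 70.3% with rice straw and 61.6% with bagasse. With 1 library per medium, differences among the media have no replicate check.

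POX08990 is 1 of 4 genes known from earlier work on this species as xylanase genes, whose products cut the xylan backbone of hemicellulose. It had a clrB ratio of 0.562. None of 9 known cellulase genes was a member. POX02740, POX03641 and POX06835 failed the fold over glucose (5.21, 4.16 and 0.587), and the ratios of POX02740 and POX06835 were 0.849 and 1.44. The other cellulase genes were wheat-bran genes with ratios of 0.00364 to 0.283. The other xylanase genes had ratios of 0.0709 to 0.108. The members just inside the thresholds were POX03636 and POX01193 for the CPM minimum (31.2 and 31.5 CPM), POX01799 and POX05888 for the fold (6.09 and 6.09), POX09499 and POX08696 for the lower end of the ratio (0.531 and 0.539), and POX01682 and POX06610 for its upper end (1.88 and 1.99). Just outside were POX00379 and POX05987 (28.3 and 29.8 CPM), POX01601 and POX03777 (folds of 5.85 and 5.98), POX06606 and POX04274 (ratios of 0.458 and 0.495), and POX06283 and POX08875 (2.11 and 2.28).

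Many members were scarcely read on AV. In the 6 AV 36 h libraries that gave the ratio, 29 of the 79 members had group means under 10 CPM in both strains, 9 of them under 1 CPM, and 4 were at 0 throughout, so that their ratio was 1 because of the added 1. For these 29 the ratio compared low values with low values, and that they do not depend on clrB is not shown by it. A level of at least 30 CPM in either strain was reached by another 29 members. POX06996, POX06451 and POX08295 had 0 counts in all 48 AV and WA libraries, although the bran media gave 249 to 572, 67.4 to 76.5 and 198 to 286 CPM of them. Lipid and induced libraries held reads of all 3, for instance 43.7 to 54.5 CPM of POX08295 in MuKu70 with oleic acid. The AV and WA libraries form a kind of table of their own, and a difference between kinds of table and a difference between cultures cannot be told apart.

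Levels outside HP7-1 bran cultures were far lower. The members summed to 24970.2, 56583 and 44285 CPM in the bran, rice straw and bagasse libraries and to 766 to 1344 CPM on glucose. On WA the MuKu70 sum was 5555 to 6215 CPM (12 h), 4615 to 4987 CPM (24 h) and 3390.5 to 3991 CPM (36 h), and on AV it was 3017 to 3438 CPM (12 h) and 4087 to 4348 CPM (36 h). The highest sum in any other library, 13860.5 CPM, came from a MuPOXClrB induced library. On WA most members stayed under their level in HP7-1. For 50 members in MuKu70 on WA at 12 h and 52 at 36 h, the group mean was under 10% of the bran mean, and the same held for 53 and 51 on AV. At 12 h on WA, 4 members reached their bran mean. The rule chose the members for high values in these 3 libraries, so the gap is a description. HP7-1 and MuKu70 differ in strain, culture from spores or transfer, time and kind of table, and these cannot be told apart.

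**Figure D1:**
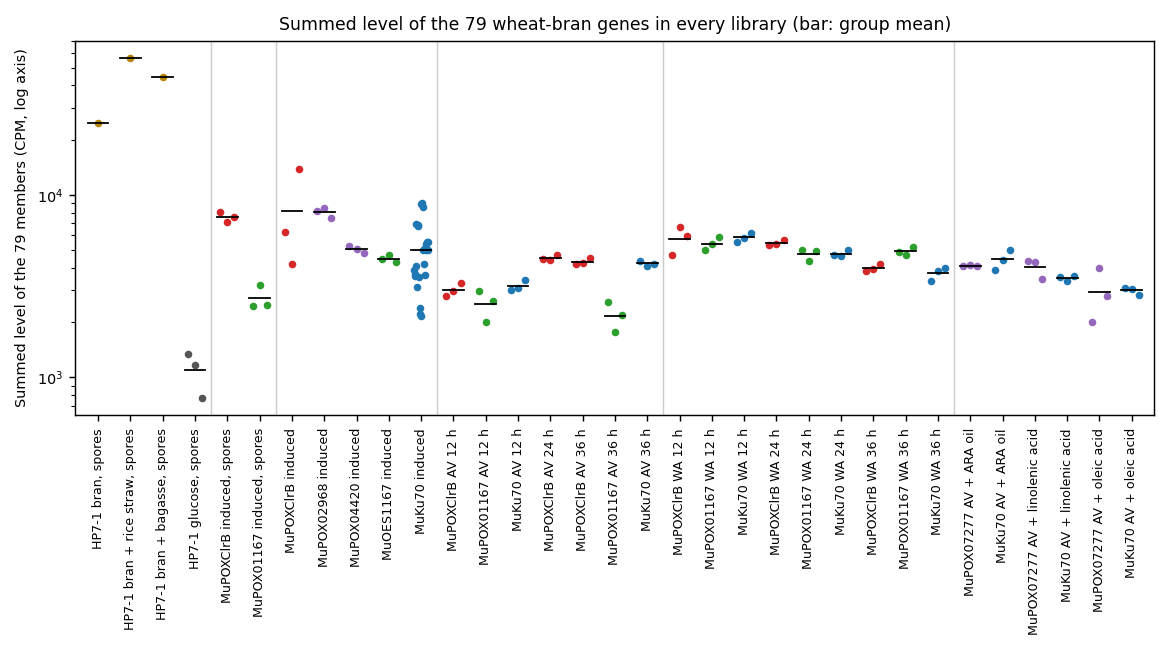
Summed level of the 79 members in CPM (log axis) in each of the 114 libraries by group, with points for libraries and bars for group means ("spores" marks cultures that were not transferred). The 3 bran libraries of HP7-1 lie at 24970.2 to 56583 CPM, and all other libraries lie at or under 13860.5 CPM.

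**Figure D2:**
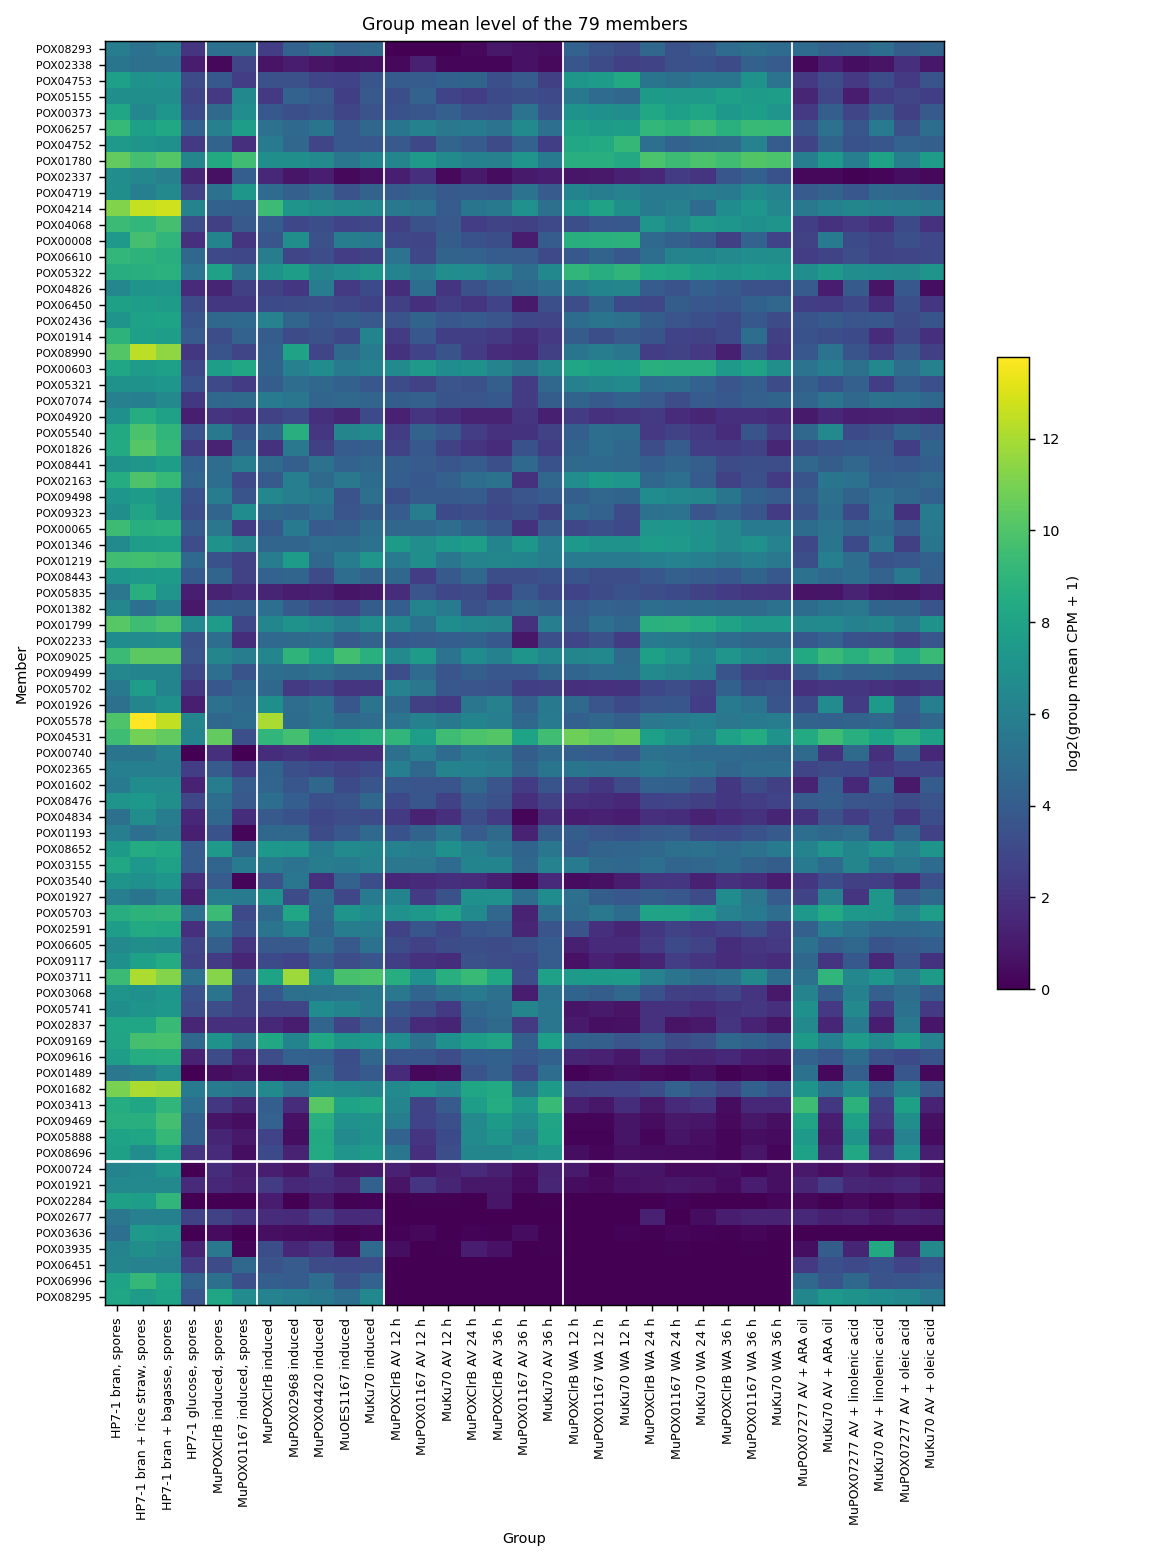
Group mean level of each member as log2(CPM + 1) (colour), with members ordered from the highest to the lowest mean log2 fold change of WA over AV in MuKu70 and, under the white line, the 9 members too low to be tested there. Members at the top are brighter on WA and POX03413, POX09469, POX05888 and POX08696, just above the line, are brighter on AV at 36 h and nearly dark on WA.

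Comparisons between groups used edgeR's quasi-likelihood test on every gene averaging 1 CPM or more. A call needed both a 2-fold change and a p under 0.05 after Benjamini-Hochberg adjustment over all genes tested. In the AV and WA libraries 70 of 79 members passed that filter. The rule selected genes that respond to the carbon source, so a share of called members above that of all genes between media is not particular to them. In bulk RNA, fewer cells with a transcript and less transcript per cell cannot be told apart.

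**Figure D3:**
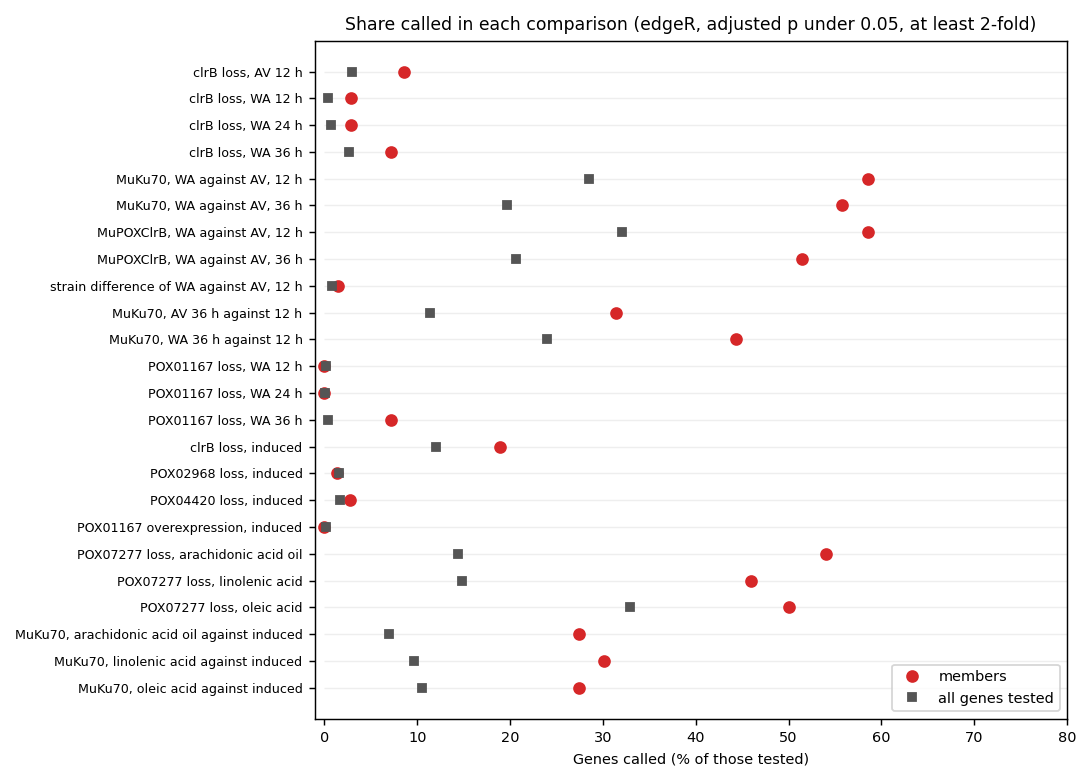
Percent of genes called in each of the 24 comparisons among the members (red circles) and among all genes tested (grey squares). Between WA and AV in both strains, 51.4% to 58.6% of the members tested were called, against 19.7% to 32.1% of all genes.

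WA against AV split the members into opposite groups, as it did all genes. In MuKu70 at 12 h, 22 members were higher and 19 lower on WA of 70 tested. Of all 8140 genes tested, 1070 were higher and 1249 lower (28.5% called). At 36 h, where the AV libraries also entered the rule, 17 members were higher and 22 lower. Among all genes 778 were higher and 823 lower (19.7% called). Of the 70, 10 were higher at both times (14.3%, against 3.27% of all genes tested) and 9 were lower at both (12.9%, against 4.26%). A further 7 were higher at 12 h and lower at 36 h and 3 were lower and then higher. At 12 h alone, 5 were higher and 7 lower, and at 36 h alone, 4 were higher and 6 lower.

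Members higher on WA at both times were POX00373, POX02337, POX02338, POX04214, POX04719, POX04752, POX04753, POX05155, POX06257 and POX08293. POX05155 had 17.9, 28.1 and 22.3 CPM on WA at 12 h in MuKu70, against 6.07, 6.3 and 5.19 CPM on AV, and 201, 225 and 208 CPM on WA at 36 h, against 8.03, 6.83 and 7.3 CPM on AV. It rose by 5.03 on the log2 scale at 36 h (SE 0.27, adjusted p = 3.34e-15), to about the same level in every library. POX02338 had 20.4, 8.97 and 13.8 CPM on WA at 36 h, against 0.669, 0.139 and 0 CPM on AV (log2 fold change 5.84, SE 0.93, adjusted p = 7.91e-06). POX08293 had 17.6, 5.64 and 1.11 CPM on WA at 12 h and was at 0 in all 3 AV libraries, at least 19.9-fold higher (against a floor of 3 counts per library, adjusted p = 0.00135). Its WA libraries spread widely, but none overlapped AV.

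The members lower on WA at both times were POX01682, POX03413, POX05741, POX05888, POX08696, POX09117, POX09169, POX09469 and POX09616. POX05888 had 0.134, 0.14 and 0.677 CPM on WA at 36 h in MuKu70, against 254, 255 and 262 CPM on AV, a log2 fold change of -9.41 (SE 1.17, adjusted p = 1.18e-07). POX09469 had 0.402, 0.561 and 0.541 CPM on WA, against 299, 239 and 256 CPM on AV (-8.81, SE 1.25, adjusted p = 1.19e-06). POX08696 had 0.268, 0 and 0.271 CPM on WA, against 182, 125 and 134 CPM on AV (-9.36, SE 1.32, adjusted p = 1.09e-06). These 3 genes, chosen as wheat-bran genes in HP7-1, were almost unread on the medium that combined wheat bran with Avicel. POX05888, for instance, had 251, 276 and 586 CPM in the bran, rice straw and bagasse libraries of HP7-1. POX03413 followed the same pattern, with 2.68, 2.24 and 0.947 CPM on WA at 36 h, against 772, 558 and 581 CPM on AV.

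Several members had an early burst on WA. POX00008 had 325, 547 and 498 CPM on WA at 12 h in MuKu70, against 13.8, 18.1 and 15.8 CPM on AV (log2 fold change 4.99, SE 0.45, adjusted p = 1.58e-10), and 4.83, 4.91 and 7.85 CPM on WA at 36 h, against 14.8, 17.4 and 13.0 CPM on AV. Its fall on WA between 12 and 36 h came to -6.23 (SE 0.48, adjusted p = 7.99e-12). POX04752 had 879, 296 and 578 CPM on WA at 12 h and 17.4, 14.9 and 12.9 CPM at 36 h, and POX02163 had 89.8, 178 and 162 CPM at 12 h and 3.08, 5.89 and 3.79 CPM at 36 h. Together with POX00008 and POX02163, the members higher and then lower on WA than on AV were POX01926, POX04531, POX04826, POX05321 and POX09499. For POX01926 this was no burst on WA, where MuKu70 averaged 7.52 CPM at 12 h and 10.7 CPM at 36 h. POX00065, POX01799 and POX02233 were lower and then higher on WA than on AV.

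The time course changed other members too, and these comparisons share libraries with those between media. On AV in MuKu70, 22 members differed between 36 h and 12 h, with 15 up and 7 down, against 11.4% of all genes called. POX03413 had 772, 558 and 581 CPM at 36 h, against 11.004, 19.2 and 12.7 CPM at 12 h (log2 fold change 5.48, SE 1.02, adjusted p = 0.000183), and POX01489 had 29.6, 27.2 and 31.4 CPM, against 0.253, 0.525 and 0.273 CPM (6.33, SE 1.33, adjusted p = 0.00071). POX08652 fell, with 49.5, 35.8 and 39.1 CPM at 36 h, against 137.9, 109 and 112 CPM at 12 h. Between the same times on WA, 16 went up and 15 down, against 24.0% of all genes. POX04068 had 186, 101 and 133 CPM at 36 h, against 12.2, 12.2 and 13.9 CPM at 12 h (3.52, SE 0.51, adjusted p = 1.11e-06), and POX06610 had 93.5, 122 and 123 CPM, against 14.1, 10.6 and 13.4 CPM. Over the 16 time-course groups, the range of group means on the log2(CPM + 1) scale had a median of 3.56 for the members, against 1.87 for all genes averaging 1 CPM or more there. Without the MuPOX01167 groups on AV, a choice made after seeing the data, these medians over 14 groups were 3.34 and 1.56. POX03413, POX05888 and POX09469 had the widest ranges (8.88, 7.89 and 7.87), and the 3 narrowest were those of the genes at 0.

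**Figure D4:**
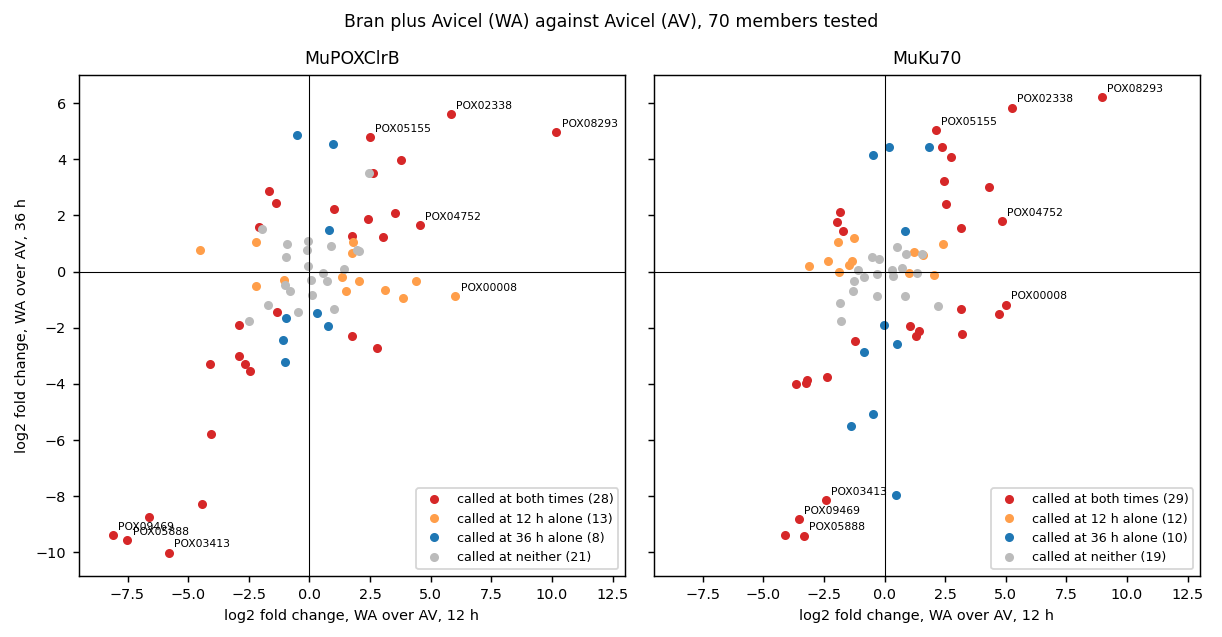
log2 fold change of WA over AV at 12 h (horizontal axis) and 36 h (vertical axis) for the 70 members tested, in MuPOXClrB (left) and MuKu70 (right), coloured by call. POX05888, POX09469 and POX03413 lie at the lower left, and POX02338 and POX08293 at the upper right, in both strains.

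At 12 h the split between media was also present without clrB. In MuPOXClrB 22 members were higher and 19 lower on WA at 12 h, against 32.1% of all genes called, and 17 were higher and 19 lower at 36 h, against 20.6%. At 12 h 19 members were called higher and 14 lower in both strains, and 0 were called in opposite directions. The matching counts over all genes are not given, so nothing particular to the members is read from this overlap. At 36 h the rule had kept the AV means of the strains within 2-fold of each other, so nothing is read from their calls in common there. POX05888 had 0.128, 0.137 and 0.263 CPM on WA at 36 h in MuPOXClrB, against 159, 108 and 151 CPM on AV. The difference between the strains in the WA effect was tested at 12 h, where 1 member, POX00373, was called, against 0.848% of all genes (1.02, SE 0.25, adjusted p = 0.0327). It had 125, 131 and 125 CPM on WA and 14.9, 5.51 and 10.2 CPM on AV in MuPOXClrB, against 103, 110 and 107 CPM on WA and 16.2, 19.4 and 16.8 CPM on AV in MuKu70. The number of members called for this difference was 4 with libraries blocked by quantification set, 2 without MuPOXClrB AV library F or MuKu70 AV library 23, and 0 without MuPOXClrB WA library F, S or T or MuKu70 WA library 31.

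Loss of clrB was tested at the times and media that the rule did not use. On AV at 12 h 4 members were higher and 2 lower in MuPOXClrB of 70 tested, against 2.97% of all genes called. The neighbouring genes POX01926 and POX01927 were the clearest. POX01927 had 82.3, 72.1 and 69.2 CPM in MuPOXClrB, against 9.87, 11.7 and 7.37 CPM in MuKu70 (log2 fold change 2.95, SE 0.33, adjusted p = 2.51e-07). POX01926 had 19.9, 31.9 and 23.5 CPM in MuPOXClrB, against 4.81, 3.02 and 4.37 CPM in MuKu70 (2.67, SE 0.37, adjusted p = 9.63e-06). The xylanase gene POX08990 fell, with 3.54, 1.93 and 3.59 CPM in MuPOXClrB, against 6.45, 14.96 and 10.9 CPM in MuKu70 (-1.88, SE 0.38, adjusted p = 0.00219), and POX01193 fell too (-2.02, SE 0.51, adjusted p = 0.0165). POX05702 and POX04214 were called higher although their libraries overlapped between the strains, as with 131, 3.44 and 72.2 CPM of POX05702 in MuPOXClrB, against 15.2, 10.1 and 12.4 CPM in MuKu70. With libraries blocked by quantification set 15 members were called, without MuPOXClrB library F 11 and without library T 3. Of the 39 wheat-bran genes with a ratio under 0.5, 28 were lower at 12 h and 0 higher.

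On WA, where the rule used nothing, loss of clrB was tested on 70 members. At 12 h 2 were called higher and 0 lower (2.86%, against 0.418% of all genes). At 24 h these were 2 and 0 (2.86%, against 0.725%), and at 36 h 4 and 1 (7.14%, against 2.64%). POX01927 had 71.8, 139 and 101 CPM at 36 h in MuPOXClrB, against 13.1, 17.5 and 13.7 CPM in MuKu70 (2.63, SE 0.33, adjusted p = 4.68e-06), and POX01926 had 40.7, 70.04 and 45.5 CPM, against 9.65, 10.5 and 12.0 CPM (2.09, SE 0.36, adjusted p = 0.000299). Both were also the members called at 12 h, by 1.37 and 1.67. At 24 h these were POX04531, with 212, 231 and 224 CPM in MuPOXClrB, against 90.9, 71.2 and 79.7 CPM in MuKu70 (1.45, SE 0.31, adjusted p = 0.0126), and POX09323 (1.65, SE 0.39, adjusted p = 0.0236). POX09323 rose again at 36 h (1.87, SE 0.39, adjusted p = 0.00319), as did POX09498 (1.25, SE 0.23, adjusted p = 0.000688), and POX08990 fell to 1.28, 1.37 and 1.18 CPM, against 3.08, 4.77 and 4.2 CPM in MuKu70. On AV at 36 h, where the rule kept the ratio under 2, POX01927 had 127, 138 and 104 CPM in MuPOXClrB and 125, 90.3 and 90.5 CPM in MuKu70. Of the 39 genes with a ratio under 0.5, 5, 4 and 7 were lower on WA at 12, 24 and 36 h and 0 were higher. At 12 h 4 members were called with the block or without MuKu70 library 30, 1 without MuPOXClrB library F or S, and 0 without MuPOXClrB library T or MuKu70 library 29 or 31. At 24 h 1 was called without MuPOXClrB library S or T or MuKu70 library 32, and 0 without MuKu70 library 33 or 34.

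Without POX01167 on WA, 0 members were called at 12 h, against 0.209% of all genes, and 0 at 24 h, against 0.0737%. An unadjusted p under 0.05 with edgeR was found for 10 and 12 members, while 1 and 2 were called with DESeq2 and 0 with limma. The shares of all genes for these further counts are not given, so they do not set the members apart. At 24 h 1 was called with libraries blocked by quantification set. Without the MuPOX01167 libraries on AV in the fit, 2 were called at either time. At 36 h 5 were higher and 0 lower, against 0.356%. They were POX04752 (log2 fold change 2.01, SE 0.39, adjusted p = 0.0069), POX04753 (1.68, SE 0.31, adjusted p = 0.00379), POX01926 (1.66, SE 0.36, adjusted p = 0.0166), POX01927 (1.41) and POX00603 (1.01). POX04752 had 101, 38.6 and 62.0 CPM in MuPOX01167, against 17.4, 14.9 and 12.9 CPM in MuKu70, without overlap. These MuKu70 libraries are also those of the clrB comparison on WA at 36 h. The count was 0 without MuPOX01167 library F or MuKu70 library 36, 2 without MuKu70 library 37 and 3 without MuKu70 library 35.

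On the inducing carbon source, loss of clrB changed 14 of 74 members tested, 8 higher and 6 lower, against 12.0% of all genes called. POX05578, the leading wheat-bran member, had 2719, 749.9 and 8977 CPM in MuPOXClrB. In the 24 MuKu70 libraries it had 5.96 to 48.3 CPM with a median of 28.9 CPM (log2 fold change 7.07, SE 0.34, adjusted p = 3.73e-15). The MuPOXClrB libraries spread widely (mean 4149 CPM, SD 4296 CPM), which this SE does not show. In MuPOXClrB grown from spores on the same carbon source, POX05578 had 21.1, 22.8 and 28.0 CPM. In MuPOXClrB on AV its mean was 74.2 CPM at 24 h, and at 36 h it had 55.5, 69.7 and 50.7 CPM. POX04214, the second member by bran level, had 375, 243 and 1447 CPM, against 16.997 to 179.9 CPM with a median of 84.4 CPM in MuKu70 (2.96, SE 0.48, adjusted p = 3.66e-05). POX06610 had 25.4, 41.5 and 104 CPM, against 2.75 to 12.4 CPM (3.28, SE 0.28, adjusted p = 7.17e-10). POX09025 was called lower, with 59.6, 96.0 and 85.5 CPM, against 88.4 to 687 CPM (-2.51, SE 0.62, adjusted p = 0.00493), and so were POX01826 and POX08293 (-2.61 and -2.33). For all 3 of these the libraries of the strains overlapped. With only the 12 shallow MuKu70 libraries, which are of the same depth class as MuPOXClrB, the log2 fold change of POX08293 was -1.21. POX08293 had 3.82, 2.96 and 6.94 CPM in MuPOXClrB, against 6.22 to 12.2 CPM in these 12 and 21.3 to 58.6 CPM in the deep ones. The count was 6 without MuPOXClrB library F. Of the genes with a ratio under 0.5, 21 of 39 were lower and 0 higher.

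The other strains on this carbon source were set against the same 24 MuKu70 libraries. MuPOX02968 had 1 member higher of 73 tested, against 1.51% of all genes called: POX05703 had 263, 262 and 309 CPM, against 28.5 to 231 CPM with a median of 106 CPM in MuKu70 (1.44, SE 0.28, adjusted p = 0.00498). MuPOX04420 had 1 higher and 1 lower of 74, against 1.62%. POX04826 rose to 54.3, 64.0 and 47.3 CPM, against 0.469 to 26.8 CPM in MuKu70 (2.72, SE 0.62, adjusted p = 0.0164), and POX05703 fell to 26.99, 27.7 and 22.2 CPM (-2.16, SE 0.38, adjusted p = 0.00313). MuOES1167 had 0 members called of 73, against 0.211%. With edgeR 9 had an unadjusted p under 0.05, while 2 were called with DESeq2 and 0 with limma. No share of all genes is given for these further counts. Set against MuKu70 libraries of the same depth class, 14 members were called in MuPOX02968 and 9 in MuPOX04420, and the same choice gave 17 in MuPOXClrB. The shares of all genes called with these controls are not given, so the counts do not set the members apart. With all 24 MuKu70 libraries, the counts were 0 without MuPOX02968 library T, 1 without MuPOX04420 library F and 0 without its library S or T. The MuKu70 induced libraries differed widely among themselves for many members: POX05888 ran from 4.04 to 515 CPM in the 12 deep libraries and from 0.469 to 227 CPM in the 12 shallow ones.

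With a lipid added to AV, loss of POX07277 changed members in both directions. With arachidonic acid oil 15 were higher and 25 lower of 74 tested, against 14.4% of all genes called. With linolenic acid 21 were higher and 13 lower, against 14.8%, and with oleic acid 22 and 15, against 32.9%. In MuPOX07277 with oleic acid the member sum ran from 2012 to 3951 CPM. Libraries F and S of that group had the highest chi-square per gene (794.5) of all replicate pairs. The lipid groups each had their own MuKu70 libraries, and 12 members were higher with every lipid (16.2%, against 5.20% of all genes tested) and 9 lower with every lipid (12.2%, against 2.39%). The median log2 fold change of all genes with oleic acid was 0.14, and that of the members 0.20.

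Members that rose with every lipid were POX00740, POX01489, POX01682, POX02837, POX03068, POX03413, POX04826, POX05741, POX05888, POX08696, POX09117 and POX09469. POX05888 had 185, 168 and 154 CPM with arachidonic acid oil in MuPOX07277, against 0.483, 0.689 and 1.73 CPM in MuKu70 (log2 fold change 7.45, SE 0.70, adjusted p = 1.09e-06). With linolenic acid it had 128, 163 and 129 CPM, against 0.689, 0.479 and 3.44 CPM (6.50, SE 0.66, adjusted p = 2.74e-06), and with oleic acid 18.1, 113 and 72.5 CPM, against 0.349, 0.486 and 0.207 CPM (7.68, SE 0.76, adjusted p = 1.84e-06). POX03413 had 709.9, 770.4 and 703 CPM with arachidonic acid oil in MuPOX07277, against 2.07, 1.65 and 7.2 CPM in MuKu70 (7.66, SE 0.80, adjusted p = 2.95e-06). The groups did not overlap for either gene with any lipid. Of the 9 members lower on WA than on AV at both times in MuKu70, 7 were higher with every lipid in MuPOX07277 (77.8% of the 9 and 58.3% of the 12): POX01682, POX03413, POX05741, POX05888, POX08696, POX09117 and POX09469. Over all genes tested in both, 130 of 343 were (37.9%, and 33.3% of the 390 higher with every lipid). These comparisons share no libraries.

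Members that fell with every lipid were POX00373, POX01346, POX01602, POX01780, POX01926, POX03935, POX04753, POX06257 and POX09323. POX03935 had 1.54, 1.97 and 1.61 CPM with linolenic acid in MuPOX07277, against 321, 279 and 404 CPM in MuKu70 (-7.60, SE 0.57, adjusted p = 1.45e-07), and 0.991, 1.55 and 1.86 CPM with oleic acid, against 62.7, 82.9 and 123 CPM (-5.73, SE 0.54, adjusted p = 1.08e-06). With arachidonic acid oil MuKu70 had 31.5, 6.27 and 9.21 CPM of it. POX01926 had 4.12, 4.15 and 4.54 CPM with linolenic acid, against 218, 211 and 109 CPM (-5.38, SE 0.63, adjusted p = 1.07e-05), and its neighbour POX01927 had 3.09, 4.59 and 2.57 CPM, against 193, 204 and 76.1 CPM (-5.51, SE 0.75, adjusted p = 4.12e-05). POX01602 had 0.637, 1.18 and 1.0 CPM with oleic acid, against 15.7, 15.2 and 13.7 CPM (-3.78, SE 0.25, adjusted p = 4.51e-08). Of the 9 members higher on WA at both times that were tested here, 3 were lower with every lipid, POX00373, POX04753 and POX06257, against 20 of 252 among all genes (7.94%).

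MuKu70 with a lipid was also set against the 12 deep MuKu70 induced libraries, the same in all 3 comparisons. The lipid libraries are those of the POX07277 comparisons. The 12 were tested as separate libraries, although they ran in the small sets described above. Of 73 members, 6 were higher and 14 lower with arachidonic acid oil, against 6.93% of all genes, 4 and 18 with linolenic acid, against 9.66%, and 2 and 18 with oleic acid, against 10.5%. POX05888 had at most 0.486 CPM with oleic acid, against 4.04 to 515 CPM with a median of 188 CPM in the induced libraries (-8.94, SE 1.66, adjusted p = 0.0011). POX01780 was called higher with each lipid (1.29, 1.79 and 1.48), with 232, 164 and 133 CPM with arachidonic acid oil, 272, 333 and 145 CPM with linolenic acid and 187, 209 and 190.5 CPM with oleic acid, against 40.9 to 155 CPM in the induced libraries. The arachidonic acid oil and linolenic acid libraries overlapped the induced ones, and the call with arachidonic acid oil was lost in 4 of 8 alternatives. Set against all 24 induced libraries, the counts were 2, 8 and 14 members, for which no share of all genes is given. With the 12 deep libraries, the count for arachidonic acid oil was 13 without MuKu70 library 38 and 12 without library 39 or 40. The growth protocol gives Avicel for the induced cultures as well, but a lipid and a separate experiment cannot be told apart here.

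**Figure D5:**
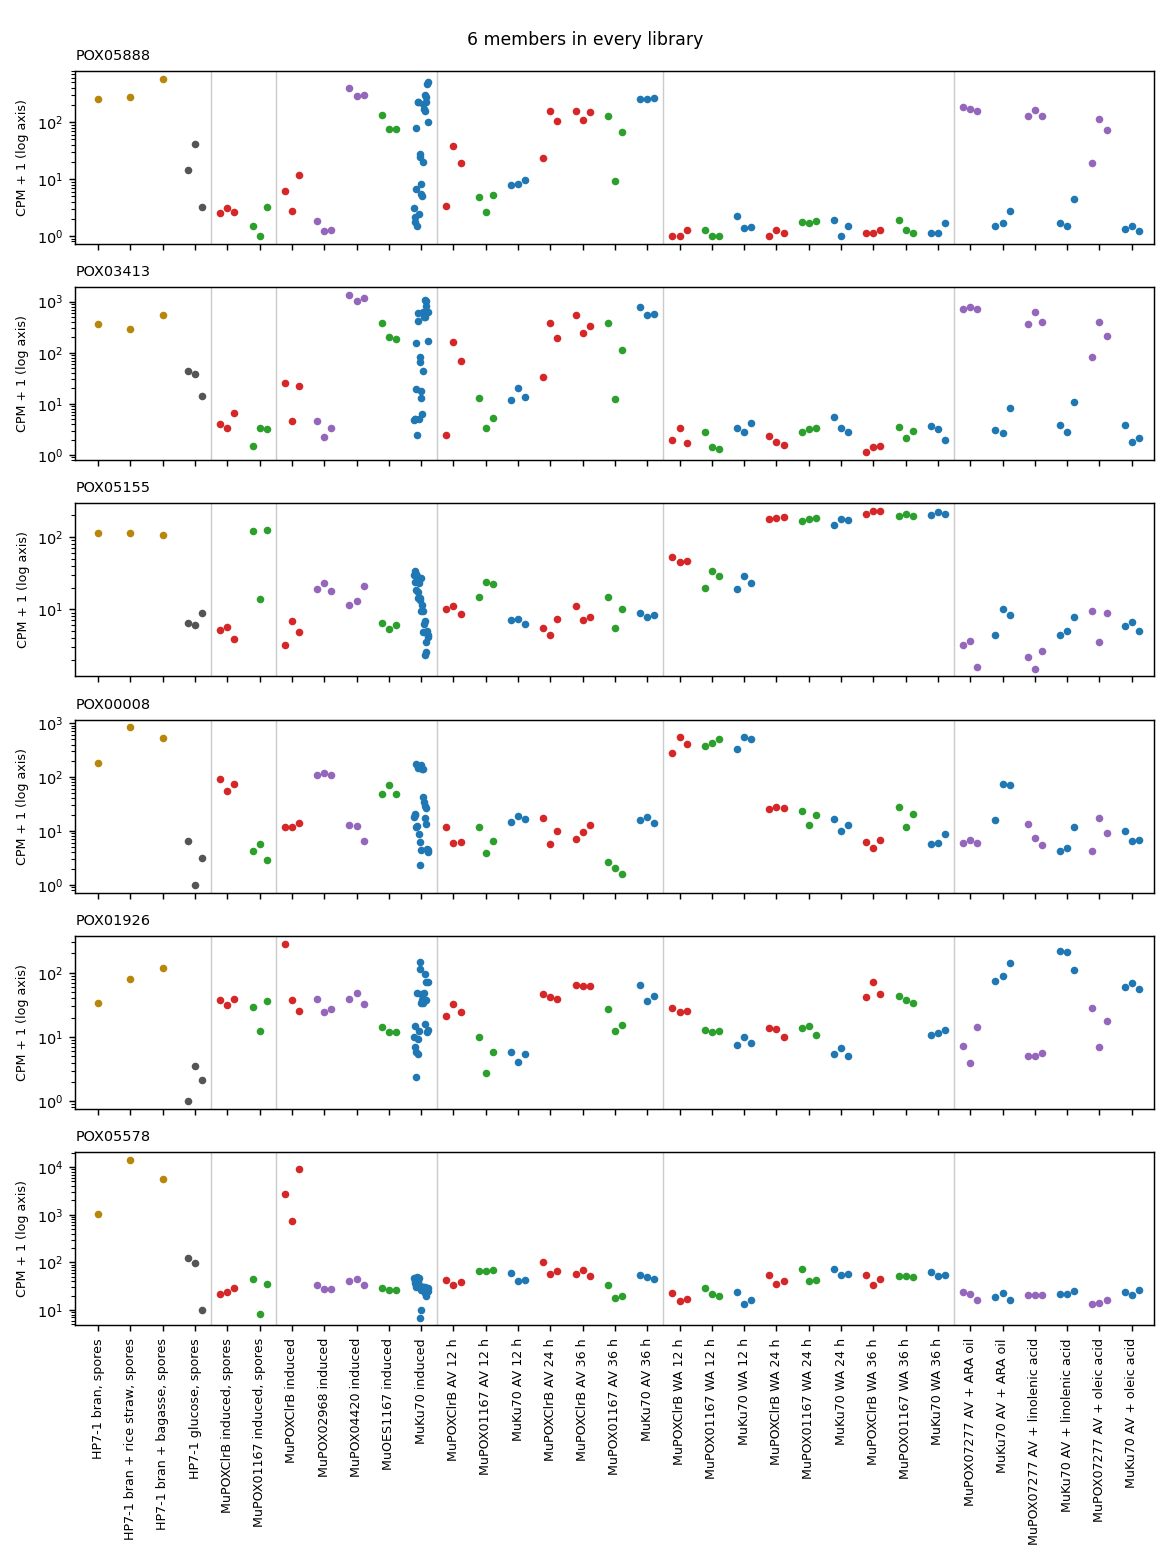
CPM + 1 (log axis) of 6 members in every library by group, in the group order of the plot of summed levels. POX05888 and POX03413 are near the bottom on WA and in MuKu70 with lipids and above 100 CPM in most MuPOX07277 lipid libraries, POX05155 is highest among AV and WA groups at 24 and 36 h on WA and POX00008 at 12 h on WA, and POX05578 is high in HP7-1 on bran and in MuPOXClrB induced.

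By position in the ID numbering, 18 of the 79 members (22.8%) lay within 2 numbers of another member. Among the 39 genes with a ratio under 0.5, 8 (20.5%) lay so close to another of them. Such a share grows with the size of a set and was not computed for all genes, so the 2 values are not compared. The 9 pairs were POX01926 and POX01927, POX02337 and POX02338, POX04752 and POX04753, POX05321 and POX05322, POX05702 and POX05703, POX06450 and POX06451, POX08293 and POX08295, POX08441 and POX08443, and POX09498 and POX09499. Across the 33 group means, Pearson's r of log2 levels was 0.88 for POX01926 with POX01927, 0.89 for POX04752 with POX04753 and 0.27 for POX05702 with POX05703, as a description over groups that differ in depth and kind of table. POX04752 and POX04753 were both higher on WA at 12 h in MuKu70, where POX04753 had 478, 151 and 362 CPM, against 20.9, 16.9 and 16.7 CPM on AV. The median coding length was 1146 bases for the members and 1150.5 bases for all genes with a length. POX07074 was tested in all 24 comparisons and called in none.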

How the data were processed

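RNA-seq libraries were quantified per gene by the authors. The submitters' processing notes name RSEM 1.2.12, the aligners Bowtie2 2.1.0 and BWA 0.7.10-r789, and DESeq2, without saying how each was used. Each deposited table holds an expected count, as RSEM estimates it, together with FPKM and TPM per the file headers. The deposited expected counts were used for CPM and, rounded to whole numbers, for the tests. The deposited FPKM values were used in limma as log2(FPKM + 1), and the deposited TPM values were not used.

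Tests used edgeR 4.0.16 in R 4.3.3 (quasi-likelihood, TMM, two-sided). Each SE is the absolute log2 fold change divided by the square root of the test's F value. It rests on a spread estimated over all groups of a fit, and need not show the spread within a group. Genes averaging at least 1 CPM over a fit were tested, and the scripts were tested on simulated data. Alternatives were DESeq2 1.42.0, limma 3.58.1, other scaling and filters, other sets of libraries, a replicate block and each replicate left out. Genes with IDs not starting with POX (29) held 0.067% or less of the counts in each library. Quantification sets were inferred by clustering the AV and WA libraries on log2 deposited FPKM per share of counts. The largest mean difference within a set was 0.131 and the smallest between sets was 0.149. In these libraries, the replicate letter named the quantification set in 30 of 30 lettered libraries and each of 16 groups had 1 library per set. Libraries of the same set deviated together from their group means (r 0.688 to 0.909), and other pairs had r of at most -0.333, so the blocked fit is given where it changed a count. Of 363 replicate pairs, 0 agreed within sampling noise (chi-square per gene under 1.5). Most of these pairs lay within the group of 24 MuKu70 induced libraries. In the AV and WA groups the pairs also crossed quantification sets, so the count does not show whether replicates are separate cultures.

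The members and gene lists were chosen with earlier results of these data known. Named were the 10 highest members on bran, up to 3 higher and 3 lower per comparison by fold change, those at each threshold, ID neighbours, the widest and narrowest ranges and the enzyme genes. Others named were chosen after their values were seen.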

Additional observations from a re-analysis of the deposited data

Results flagged for a closer look

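The WA effect on POX00373 at 12 h differed between MuPOXClrB and MuKu70 by 1.02 on the log2 scale in edgeR's interaction test (SE 0.25, adjusted p = 0.0327). Its log2 fold change of WA over AV was 3.77 in MuPOXClrB and 2.75 in MuKu70. The AV libraries lay at 5.51 to 14.9 CPM in MuPOXClrB and 16.2 to 19.4 CPM in MuKu70, and the WA libraries at 125 to 131 CPM in MuPOXClrB and 103 to 110.3 CPM in MuKu70. The cause was not tested.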

How the results depend on the processing

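Of 293 alternatives to the numbers of members called, 226 stayed within 1.5 times and 67 did not. The shares of all genes called in these alternatives are not given here. The 97 named member comparisons kept their direction in all 1083 alternatives, and in 81 of them the call was lost. With DESeq2 the number of members called after clrB loss was 12 on AV at 12 h and 4, 5 and 8 on WA at 12, 24 and 36 h. It was 4 for the strain difference, 1 and 2 for POX01167 loss on WA at 12 and 24 h, 10 for MuPOX02968, 6 for MuPOX04420 and 2 for MuOES1167. With the compared groups fitted alone, the numbers after clrB loss were 1 on AV and 0, 1 and 3 on WA, and 0 for the strain difference and for POX01167 loss at 36 h. The replicate block by quantification set gave 15 after clrB loss on AV at 12 h, 4 on WA at 12 h, 4 for the strain difference and 1 for POX01167 loss on WA at 24 h. Without the libraries labelled MuPOX01167 on AV, an alternative chosen after seeing the data, clrB loss gave 13 on AV and 4, 5 and 8 on WA, the strain difference 3, and POX01167 loss 2, 2 and 8 at 12, 24 and 36 h. Controls of the same depth class gave 14 in MuPOX02968 and 9 in MuPOX04420, and all 24 induced controls gave 2 with arachidonic acid oil and 8 with linolenic acid. The cause of these shifts was not tested.

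Leaving out 1 library at a time gave 3 to 11 members after clrB loss on AV at 12 h, 0 to 4, 0 to 2 and 5 to 6 on WA at 12, 24 and 36 h, and 6 to 13 on the inducing carbon source. It gave 0 to 2 for the strain difference, 0 to 4 for POX01167 loss at 36 h, 0 to 1 for MuPOX02968, 0 to 1 for MuPOX04420 and 12 to 13 for arachidonic acid oil against induced. The media comparisons gave 36 to 40 (MuKu70, 12 h), 39 to 41 (MuKu70, 36 h), 38 to 43 (MuPOXClrB, 12 h) and 34 to 35 (MuPOXClrB, 36 h).

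The number of members was 125 at 4 times over glucose, 42 at 10 times, 49 with a clrB ratio between 0.67 and 1.5, 47 with TMM-scaled CPM, and 75 to 108 with 1 library left out. The rule reads glucose libraries with as few as 365937 counts.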
